A study of Rattus norvegicus with 13 samples.

Results

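The transcripts described here code for the proteins that load, dock and fuse synaptic vesicles, measured in the midbrain of rats given methamphetamine (METH), in a dissection (SN/VTA) that holds the substantia nigra together with the ventral tegmental area. They were taken by symbol from the annotation of the array: the synaptotagmins (Syt), synapsins (Syn1 to Syn3), synaptophysins and synaptogyrins (Syp, Sypl, Syngr), the SV2 proteins, the SNARE proteins Snap25, Vamp and Stx, the complexins (Cplx), symbols that begin with Rab3, and the RIM (Rims) and Munc13 (Unc13) proteins. Of 13337 genes named on the array, 71 matched, with 74 probes, and 1 probe was used per gene. Symbols that begin with Rab3 take in the vesicle GTPases Rab3a to Rab3d and their partners. They also take in Rab30 to Rab39a, which are other Rab GTPases, outside the Rab3 group, and match by the start of the symbol.

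Male Sprague-Dawley rats, 8 weeks old, were pretreated for 3 weeks with saline or rising doses of METH. The challenge came 72 h later, as 8 hourly injections (saline, or METH at 5 mg/kg each), and the rats were killed 24 h after it. The 4 groups were MM (METH pretreatment, METH challenge; 3 arrays), MS (METH pretreatment, saline challenge; 4 arrays), SM (saline pretreatment, METH challenge; 3 arrays) and SS (saline for both; 3 arrays). MS against SS shows METH pretreatment alone, SM against SS the challenge in rats that had no METH before, and MM against MS the challenge in METH-pretreated rats. Each array was treated as 1 sample. Nothing in the labels states that an array holds the RNA of a single rat, so the p-values measure the spread between these samples.

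At a nerve terminal, synapsins tether vesicles in a reserve pool, and Rab3, RIM and Munc13 proteins bring vesicles to the active zone and prime them. Fusion follows when the vesicle SNARE protein Vamp1 or Vamp2 zips together with syntaxin 1 (Stx1a) and Snap25 on the plasma membrane, held in check by complexins and triggered by calcium binding to Syt1 or Syt2. Dopamine neurons of the SN/VTA use this machinery at their terminals in the striatum and at their dendrites, and METH releases dopamine mainly by another route, reversal of transporters. Many of the other syntaxins and Vamp proteins serve fusion at endosomes, the Golgi or the plasma membrane, and not only in neurons.

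Signals are given in the arbitrary units of the scanner software, recovered from the deposited ratios, and a value of 0 means that the probe stood at the lower limit of the file. Signals of different probes cannot be set against each other, since each probe binds its RNA with its own strength. Of the 71 genes, 61 lay above the limit on all 13 arrays, 7 on some of them and 3 (Cplx3, Rab39a, Syt15) on none. In all, 65 genes passed the filter on dim probes and were tested. The other 3 that did not pass were Rab33b and Syt8, at the limit on 11 arrays, and the priming factor Unc13a, at the limit on 12. The median signal was over 32 units for 48 of the 71 genes (67.6%), against 46.5% of all probes, and over 1000 units for 10. Below 32 units the scatter was a large part of the signal: the median SD within a group was 4.52 units for probes of 5 to 10 units and 5.35 units for probes of 10 to 20 units. Syngr2 and Cplx2 were not analysed here.

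The tissue was checked by its own markers. Tyrosine hydroxylase (Th), the enzyme that starts dopamine synthesis, read 392 to 1160 units in MM, 301 to 2670 in MS, 757 to 2240 in SM and 211 to 1353 in SS. The dopamine transporter Slc6a3 read 0 on 1 MS array and 2076 units on another. Its range was 130 to 724 units in MM, 388 to 2102 in SM and 164 to 955 in SS. Slc18a2, another of these markers, read 379 to 634 units in MM and 178 to 565 in MS. In SM it read 391 to 472 units and in SS 122 to 684. Tph2, the enzyme of serotonin neurons, was present on all arrays, at 2212 to 3096 units in MM, 753 to 2034 in MS, 1988 to 2744 in SM and 789 to 2954 in SS. Th thus varied widely within every group, most in MS and SS, and Tph2 varied more within MS and SS than within MM and SM. The summed signal of 9 dopamine neuron markers ran from 4902.5 to 7828 units in MM and 5313 to 11446 in MS. It was 6789 to 10088 in SM and 5027 to 7075 in SS. The sum of 6 serotonin neuron markers was 4391 to 5258 in MM and 1336 to 4424 in MS. It was 3774 to 5304 in SM and 1486 to 5808.5 in SS. The sum of 8 markers of neurons in general ran from 26376 to 29352 units in MM and 26890 to 36229 in MS. It was 27619 to 29323 in SM and 26380 to 28364 in SS. In such tissue, fewer cells of a type and less RNA per cell cannot be told apart.

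**Figure D1:**
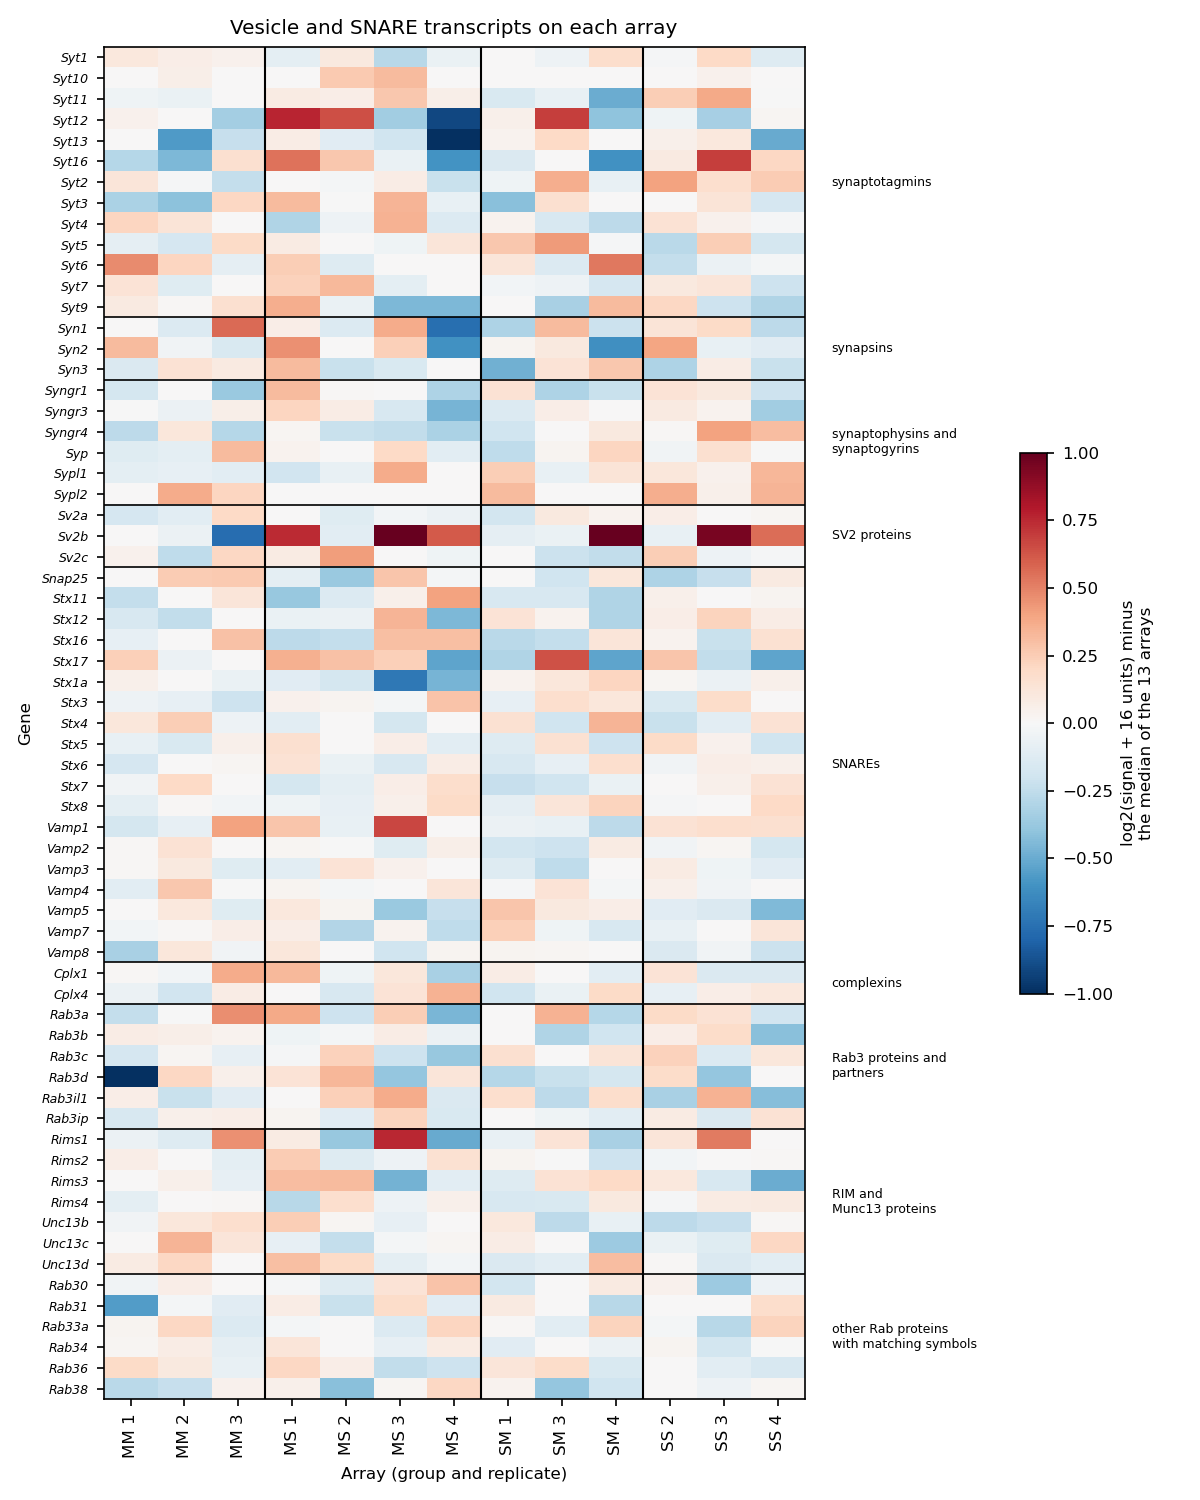
Signal of the 65 tested genes (rows, by protein family) on each of the 13 arrays (columns, by group and replicate number), as log2 of signal plus 16 units minus the gene's median over the 13 arrays. Colours are capped at 1 in each direction, which Rab3d, Sv2b and Syt13 pass. Single arrays stand out in single genes, such as Rab3d on MM replicate 1 and Syt13 on MS replicate 4.

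Few genes of the module met the study's criterion in any comparison. A gene was called changed at that criterion, 1.7-fold at unadjusted p under 0.05 (limma). After METH pretreatment alone (MS vs SS) 3 of 65 genes fell (4.62%), Syngr4, Syt2 and Sypl2, and none rose. The background was 1.13% of all 17140 tested probes in either direction, and 0.572% called lower in MS. After the challenge of saline-pretreated rats (SM vs SS) 0 of 65 were called by the same test, against 1.62% of all probes. At unadjusted p under 0.05 alone there were 2 genes (3.08%), against 4.36% of all probes. After the challenge of METH-pretreated rats (MM vs MS) 1 gene fell, Sv2b (1.54%), against a background of 1.32%. No gene of the module reached a limma adjusted p under 0.05 in these comparisons or in the 3 averages and differences given below.

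The family medians lay between -0.30 and 0.09. Over the 65 genes the median log2 fold change was 0.02 for MS vs SS, -0.06 for SM vs SS and 0.01 for MM vs MS, beside 0.02, 0.01 and -0.01 over all tested probes. The 19 SNARE genes had medians of 0.03, -0.00 and 0.02 in these 3 comparisons, the 3 synapsins -0.06, -0.10 and 0.06, and the 7 tested RIM and Munc13 genes 0.06, -0.06 and 0.03. The 13 tested synaptotagmins had medians of -0.10, -0.08 and -0.13, the 6 synaptophysins and synaptogyrins -0.07, -0.11 and 0.04, the 3 SV2 genes 0.09, -0.20 and -0.30, the 2 tested complexins 0.07, -0.02 and -0.05, and the 6 Rab3 genes and partners 0.01, -0.06 and 0.01. Of the 65 genes 33 were higher and 32 lower in MS vs SS, 26 higher and 39 lower in SM vs SS, and 35 higher and 30 lower in MM vs MS, against 56.4%, 51.6% and 47.3% of all tested probes that were higher. Among the 48 genes over 32 units, the log2 fold changes of MS vs SS all lay between -0.55 and 0.38.

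Snap25 and Vamp2, 2 parts of the core fusion machine, were not called in any comparison. Snap25 read 8179, 9694 and 9756 units in MM, 7589, 6296, 9848 and 8022 in MS, 8141, 7072 and 8789 in SM, and 6586, 6954 and 8677 in SS. The groups overlapped, and the log2 fold change was 0.09 (SE 0.16) for MS vs SS, 0.12 (SE 0.17) for SM vs SS and 0.23 (SE 0.16) for MM vs MS. Vamp2, the main vesicle SNARE of the forebrain, averaged 481 ± 28.1 units in MM, 458 ± 24.7 in MS, 431 ± 50.8 in SM and 442 ± 31.2 in SS (SD, n = 3, 4, 3 and 3). For Vamp2 the 95% interval of MS vs SS excluded any fall or gain as large as 1.7-fold, as it did for Snap25, Syp, Syt1, Syngr3, Sv2a and Cplx1. Vamp1, its relative in brainstem and motor neurons, read 755, 748 and 654 units in SM, against 874, 885 and 881 units in SS. These arrays did not overlap, but the change was small (log2 -0.29, SE 0.19).

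Stx1a, the plasma membrane SNARE that binds Munc18 and the dopamine transporter, was lowest in MS. It read 39.1, 37.0, 20.3 and 27.3 units on the 4 MS arrays, against 44.6, 41.4 and 46.0 units in SS. The challenged groups read 46.0, 43.7 and 41.0 units in MM, and 45.1, 48.5 and 53.2 units in SM. No MS array reached the lowest array of any other group. The log2 fold change was -0.55 (SE 0.20, limma adjusted p = 1) for MS vs SS and 0.54 (SE 0.20, limma adjusted p = 0.999) for MM vs MS, both under 1.7-fold. The 2 comparisons share the MS arrays, and as single arrays were left out the values ran from -0.68 to -0.37 and from 0.35 to 0.67. MS replicate 3, the lowest for Stx1a, was also the array on which the dopamine transporter was at the limit, and the part of this in the result was not tested. Markers of serotonin neurons had the same pattern, with 5 of 6 lower in MS vs SS (median log2 -0.53, none called) and 6 of 6 higher in MM vs MS (median 0.80, Tph2 called). Their part in the result was not tested either. Groups did not overlap in MS vs SS for 4 of the 65 genes (6.15%), against 2.92% of all probes, in MM vs MS for 3 (4.62%), against 4.38%, and in SM vs SS for 7 (10.8%), against 9.92%.

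**Figure D2:**
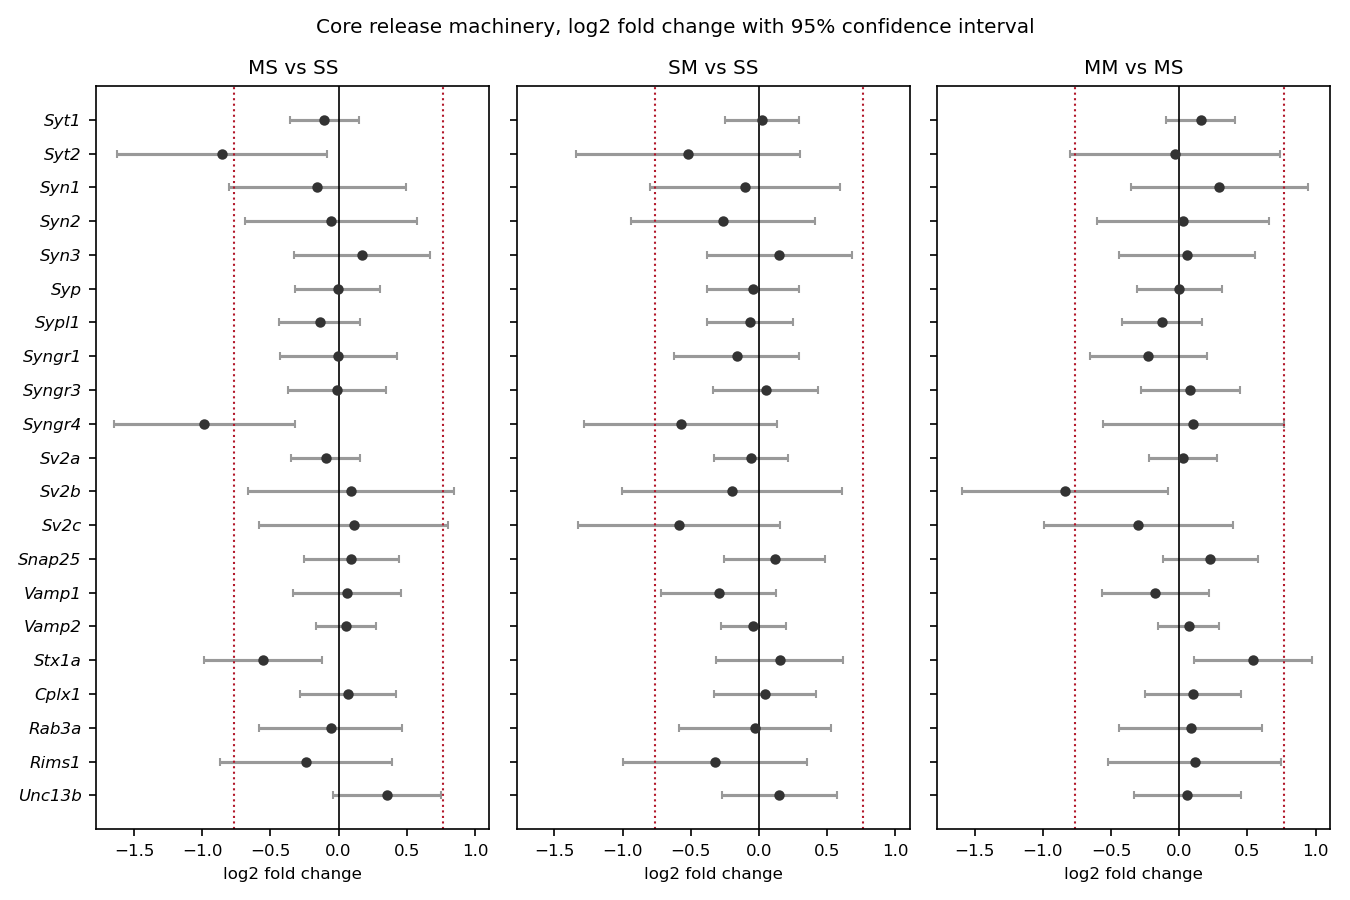
log2 fold changes (horizontal axis, with 95% confidence intervals from limma) of 21 genes of the core release machinery (rows) in 3 comparisons, 1 a panel. Dotted lines mark 1.7-fold. Of these 21 genes, only Syt2, Syngr4 and Stx1a have intervals that leave out 0 in MS vs SS, and only Sv2b and Stx1a in MM vs MS. Sypl2, whose values depend on the floor, is not drawn, and its MS vs SS interval also leaves out 0 (-8.10 to -0.70).

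The 3 genes that fell in MS were all dim. Syngr4 codes for a synaptogyrin, a membrane protein with 4 spans whose better known relatives Syngr1 and Syngr3 sit on synaptic vesicles. It read 13.1, 8.62, 8.18 and 7.02 units in MS, against 13.0, 22.0 and 19.6 units in SS. The groups overlapped, since MS replicate 1 lay just above SS replicate 2. The MM arrays, at 7.93, 15.0 and 7.52 units, and the SM arrays, at 9.03, 12.7 and 14.8 units, overlapped both. The log2 fold change of MS vs SS was -0.98 (SE 0.30, limma adjusted p = 1), and the call held when any 1 array was left out, with values from -1.21 to -0.83.

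Syt2, the fast calcium sensor of brainstem and fast-spiking synapses, read 8.07, 7.74, 9.36 and 4.62 units in MS, against 15.9, 11.0 and 12.7 units in SS. The groups did not overlap. The log2 fold change was -0.86 (SE 0.35, limma adjusted p = 1). Without SS replicate 2, SS replicate 4 or MS replicate 4 it was no longer called, at -0.71, -0.88 and -0.64. In the challenged groups Syt2 read 10.1, 7.92 and 4.36 units in MM, and 7.34, 15.0 and 6.88 units in SM. Its paralog Syt1 averaged 6722 units in MS (5874 to 7585) and 7226 in SS (6497 to 8144; log2 -0.10, SE 0.12).

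Sypl2, a relative of synaptophysin known from the membrane junctions of skeletal muscle, stood at the limit on all 4 MS arrays, against 4.63, 0.585 and 4.29 units in SS. It was also at the limit on 1 MM and 2 SM arrays. No fold is given against a group at the limit. The fitted log2 value of -4.40 depends on the floor set under the limit, and on signals plus 16 units it was -0.25, not called. Without SS replicate 2 or SS replicate 4 it was not called either, at -3.89 and -3.94. The SS values are of the size of the scatter of probes of 1 to 5 units, whose median SD within a group was 2.91 units. The difference between the challenge effects was called for Sypl2 alone (log2 6.02, SE 2.48, limma adjusted p = 1), against a background of 1.66%, and rests on the same values at the limit. It was not called when any 1 of 10 arrays was left out, at 4.97 to 6.02.

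**Figure D3:**
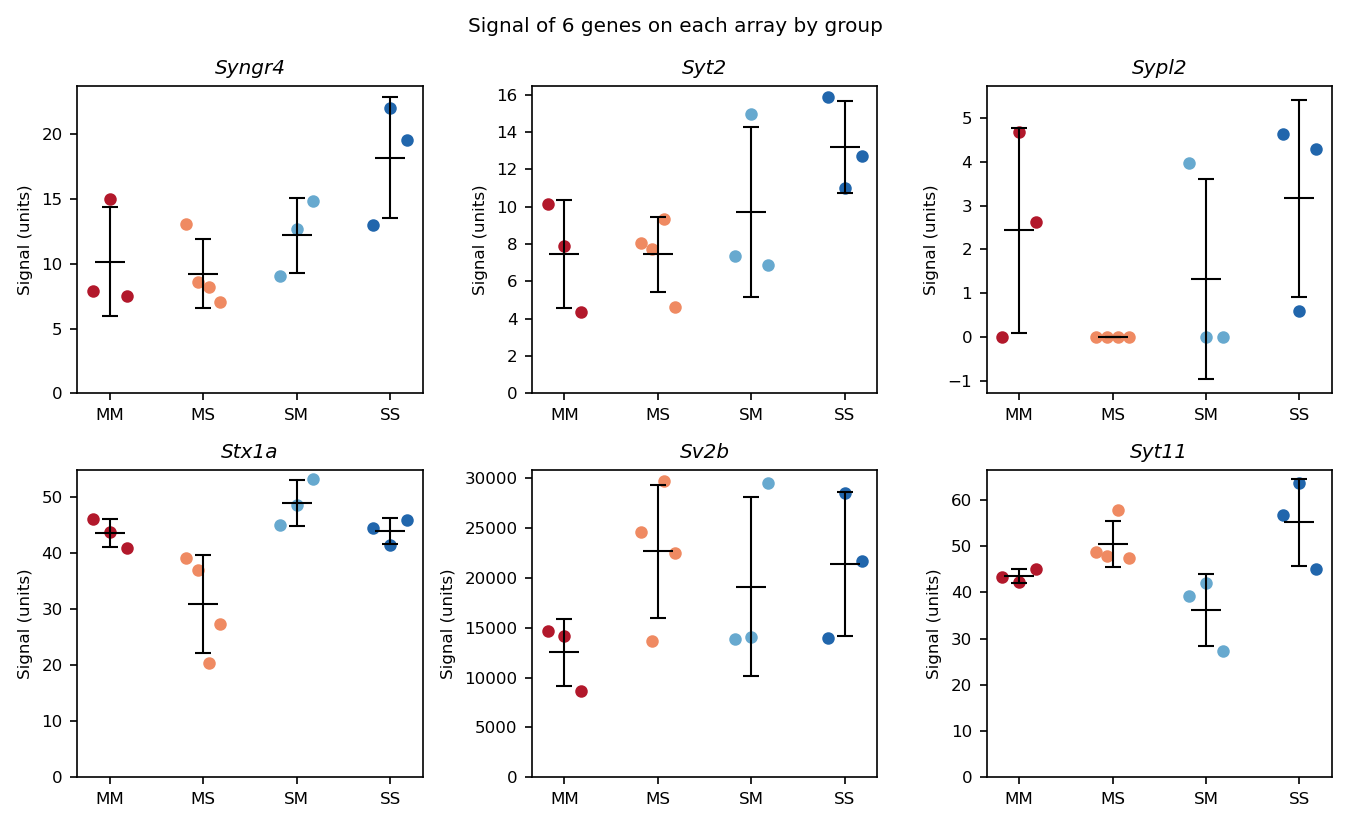
Signal in units (vertical axis) of 6 genes on each array by group, with the group mean and SD in black; 0 is the lower limit of the file. Syngr4, Syt2 and Sypl2 are lower in MS than in SS at signals under 25 units, Stx1a is lowest in MS, and Sv2b varies over 3.42-fold among arrays.

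These 3 calls sit among dim probes. Of the 17 tested genes at or under 32 units 3 were called in MS vs SS, against 2.62% of the 6672 tested probes of that range, and of the 48 brighter genes none was called, against 0.172%. When 16 units were added to each signal before the log, Syngr4 fell by 0.43 on the log2 scale and Syt2 by 0.32, under 1.7-fold, and 0 of 65 genes were called by limma, against 0.0992% of all probes. Markers of blood moved in the same comparison: the 4 of them were all lower in MS, 1 of them called (Alas2), with a summed signal of 14315 to 19331 units in MS and 20305 to 24531 in SS and none at the limit on all arrays. Their part in the result was not tested.

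**Figure D4:**
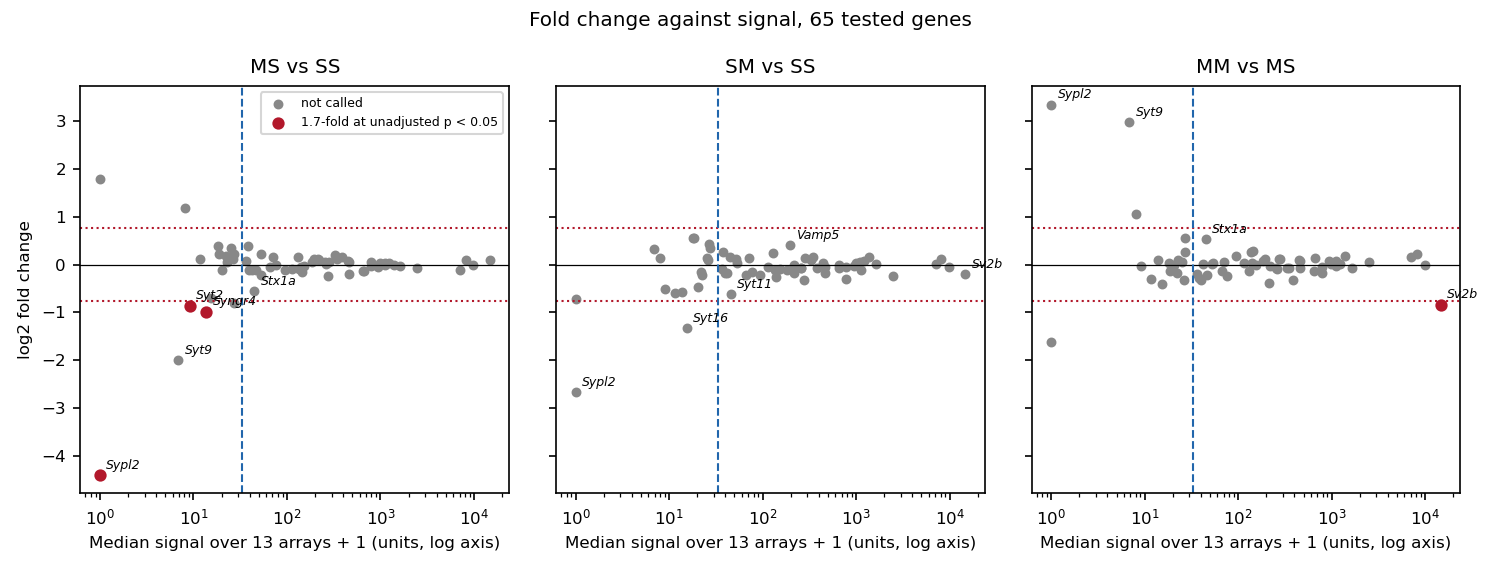
log2 fold change (vertical axis) against the median signal over 13 arrays plus 1 unit (horizontal log axis) of the 65 tested genes, with 1 panel for each of 3 comparisons. Dotted lines mark 1.7-fold and the dashed line 32 units; of the 4 called points (red) Sv2b alone lies right of it, and values of Sypl2 and Syt9 depend on the floor.

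In the promoters of these genes letters of common elements were counted, because 3 members were called together in MS vs SS. RefSeq promoters were at hand for 54 of the 71 genes, 60 windows in all of 250 bases before the annotated start. The letters GGGCGG (a GC box, on either strand) stood in 39 of these 60 windows (65%), against 30.5% of 33469 rat promoters and 46.8% of 11459 promoters of genes named on the array. The GC content was high as well, with a median of 60.4% in the member windows, 51.2% in all and 57.2% in those of the array's genes. The TATA box, written TATAAA, was found in 2 windows, both of Syt16 (3.33%), against 12.9% of all promoters. The letters CCAAT were present in 17 windows (28.3%), against 34.0% of all promoters. The E box searched for was CACGTG, seen in 6 windows (10.0%), against 5.59% of all promoters. An AP-1 element, searched as TGANTCA with any base at N, was present in 1 window (1.67%), against 6.34% of all promoters. The cAMP response element, TGACGTCA, was found in 2 windows, those of Syn1 and Vamp1 (3.33%), against 1.59% of all promoters. All were searched on both strands. Among promoters of genes named on the array the shares were 11.5% for TATAAA, 34.7% for CCAAT and 6.79% for CACGTG. They were 5.7% for TGANTCA and 2.33% for TGACGTCA. A match is a description of letters and not a site. The 4 windows below, of the called genes, are on the gene's strand from 5′ to 3′ in build GRCr8, with matches to any of these elements in capitals: Syngr4 at chr1:105508100-105508349 (minus strand), Syt2 at chr13:48736872-48737121 (plus strand), Sypl2 at chr2:198551940-198552189 (minus strand) and Sv2b at chr1:138562259-138562508 (minus strand).
Syngr4: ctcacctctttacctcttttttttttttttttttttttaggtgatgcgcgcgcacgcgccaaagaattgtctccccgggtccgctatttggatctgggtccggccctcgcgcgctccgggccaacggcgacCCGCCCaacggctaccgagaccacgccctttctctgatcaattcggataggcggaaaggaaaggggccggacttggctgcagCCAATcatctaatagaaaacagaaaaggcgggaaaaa
Syt2: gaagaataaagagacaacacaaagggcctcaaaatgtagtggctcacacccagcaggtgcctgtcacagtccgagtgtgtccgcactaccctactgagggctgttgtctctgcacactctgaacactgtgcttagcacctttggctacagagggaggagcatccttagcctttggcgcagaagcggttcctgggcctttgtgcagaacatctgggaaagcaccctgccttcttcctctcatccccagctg
Sypl2: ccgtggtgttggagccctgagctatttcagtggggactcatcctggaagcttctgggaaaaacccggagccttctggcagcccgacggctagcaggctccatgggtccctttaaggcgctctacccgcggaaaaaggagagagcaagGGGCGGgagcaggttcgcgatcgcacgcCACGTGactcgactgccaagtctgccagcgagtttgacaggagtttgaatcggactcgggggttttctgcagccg
Sv2b: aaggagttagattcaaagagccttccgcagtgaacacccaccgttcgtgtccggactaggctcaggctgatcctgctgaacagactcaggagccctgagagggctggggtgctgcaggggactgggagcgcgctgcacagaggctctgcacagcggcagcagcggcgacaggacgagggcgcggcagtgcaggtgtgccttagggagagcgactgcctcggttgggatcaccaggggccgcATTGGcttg
Syngr4 holds a GC box and a CCAAT box, Sypl2 a GC box and an E box, Sv2b a CCAAT box 9 to 5 bases before the start, and Syt2 none of the 6. None of the 6 elements stands in all 3 windows of the genes called in MS vs SS.

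Sv2b was the 1 gene called after the challenge of METH-pretreated rats. SV2 proteins are transporter-like glycoproteins of the vesicle membrane that help prime release, and Sv2a is the target of the drug levetiracetam. Sv2b read 14708, 14152 and 8679.5 units in MM, against 24614, 13683, 29724 and 22502 units in MS. MS replicate 2 lay among the MM arrays. The SM arrays, at 13812, 14015 and 29435 units, and the SS arrays, at 14006, 28437 and 21646 units, spread over the same range. The log2 fold change of MM vs MS was -0.84 (SE 0.35, limma adjusted p = 0.999). Without MM replicate 3 it was -0.59, and without MS replicate 1, 3 or 4 it was -0.78, -0.69 and -0.82, none of them called. With quantile normalization (-0.72), ratios as deposited (-0.75), a replicate block (-0.73) or no filter (-0.84, past the fold but not the p) it was not called. On signals plus 16 units it was called, against 0.268% of all probes.

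Sv2b had a wide spread for its signal. Its SD within groups was 0.51 on the log2 scale, the 23rd largest of 2339 probes over 1000 units, whose median was 0.12. Sv2a averaged 112 ± 18.3 units in MM, 109 ± 4.42 in MS, 112 ± 12.8 in SM and 116 ± 2.83 in SS (SD, n = 3, 4, 3 and 3), and its log2 fold change of MM vs MS was 0.03 (SE 0.12). Sv2c, the form enriched in the basal ganglia and dopamine neurons, was dim, at 6.34 to 14.8 units in MM and 9.90 to 19.7 in MS (log2 -0.30, SE 0.32). The difference between the challenge effects was -0.64 (SE 0.51) for Sv2b, so its change in MM vs MS was not shown to differ from that in SM vs SS (log2 -0.20, SE 0.37). In MM vs MS markers of meninges and choroid plexus were all lower (6 of 6, none called), with a summed signal of 3949 to 4076 units in MM and 4728 to 5482 in MS, and all 6 markers of serotonin neurons were higher, 1 of them called (Tph2), at a summed 4391 to 5258 units in MM and 1336 to 4424 in MS. The 8 markers of neurons in general were all lower in MM vs MS too, by a small amount (median log2 -0.07, none called). Their summed signal overlapped, at 26376 to 29352 units in MM and 26890 to 36229 in MS. None of these markers was at the limit on all arrays. Their part in the result was not tested.

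After the challenge of saline-pretreated rats Syt11 had the smallest p of the module. Syt11 is a synaptotagmin that does not bind calcium and slows vesicle membrane uptake. It read 39.1, 42.0 and 27.3 units in SM, against 56.6, 63.7 and 44.9 units in SS, with no overlap. The log2 fold change was -0.62 (SE 0.17, limma adjusted p = 0.796), under 1.7-fold. In MM it read 43.2, 42.2 and 45.1 units, below all 4 MS arrays at 48.6, 47.9, 57.8 and 47.5 units (log2 -0.21, SE 0.16). Over both pretreatments the average METH challenge effect was -0.41 (SE 0.12, limma adjusted p = 0.510). The difference between the challenge effects was 0.41 (SE 0.23). Markers of other cells moved in SM vs SS as well. The 4 blood markers were all lower (median log2 -0.94), 3 of them called (Alas2, Hbb and Pf4), with a summed signal of 10719 to 12899 units in SM and 20305 to 24531 in SS. Of 6 markers of meninges and choroid plexus 5 were lower (median -0.57), 1 of them called (Col1a1), at a summed 3153 to 3845 units in SM and 4300.1 to 6056 in SS. None was at the limit on all arrays. Their part in the values of Syt11 and of the genes that follow was not tested.

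Vamp5, a Vamp protein of muscle and endothelium, was higher in SM, at 239, 208 and 203 units, against 178, 174 and 139 units in SS. The groups did not overlap (log2 0.41, SE 0.17, limma adjusted p = 1). In MM it averaged 194 ± 16.3 units and in MS 179 ± 29.7 (SD, n = 3 and 4; log2 0.12, SE 0.16). The endosomal syntaxin Stx7 read 2113, 2154 and 2365 units in SM, against 2481, 2572 and 2743 in SS (log2 -0.23, SE 0.11). Syt16, a synaptotagmin relative without calcium sites, read 11.4, 14.4 and 3.96 units in SM, against 16.4, 32.95 and 19.1 units in SS (log2 -1.33, SE 0.69). It was called without SM replicate 3 (log2 -1.69) and without MS replicate 4, which enters through the shared spread.

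The averages over the 2 by 2 design called no gene of the module by limma. For the average METH challenge effect 3 genes had an unadjusted p under 0.05 (4.62%; Syt11, Stx1a and Vamp5), against 5.70% of all probes at that p and 1.17% called. For the average METH pretreatment effect there were 4, Syngr4 (log2 -0.65, SE 0.22), Syt2 (-0.61, SE 0.26), Stx1a (-0.36, SE 0.15) and Unc13b (0.31, SE 0.13). They make 6.15%, against 3.18% of all probes at that p and 1.07% called. Unc13b, a Munc13 isoform that primes vesicles, read 23.2 to 29.2 units in MM and 22.0 to 31.7 in MS, against 17.6 to 27.4 in SM and 17.5 to 24.6 in SS. Its ranges overlapped, and all are under 32 units. Without MM replicate 2 Syngr4 was called in this comparison as well (log2 -0.81).

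Some bright genes were highest or lowest on the same replicate number of the labels in each group that has it. The synapsin Syn1, which tethers vesicles, read 220 units on replicate 3 of MM, 189 of MS, 181 of SM and 165 of SS, the highest array of each group. Rims1, the active zone scaffold, read 384, 474, 303 and 400.4 units on these same arrays, and was lowest on replicate 4 in the 3 groups that have one, at 189 in MS, 216 in SM and 274 in SS. Rims1, Syn1, Syt3 and Syt11 were highest on replicate 3 in all 4 groups, which makes 4 of 48 bright genes (8.33%), against 1.72% of 10468 bright probes. Cplx1, Rab3a, Rims1, Stx5, Syn2 and Syt11 were lowest on replicate 4 in its 3 groups, 6 of 48 (12.5%), against 4.38%. The 5 genes Cplx4, Rab33a, Stx4, Stx7 and Stx8 were highest there (10.4%), against 10.3%. The labels do not say what the number stands for.

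**Figure D5:**
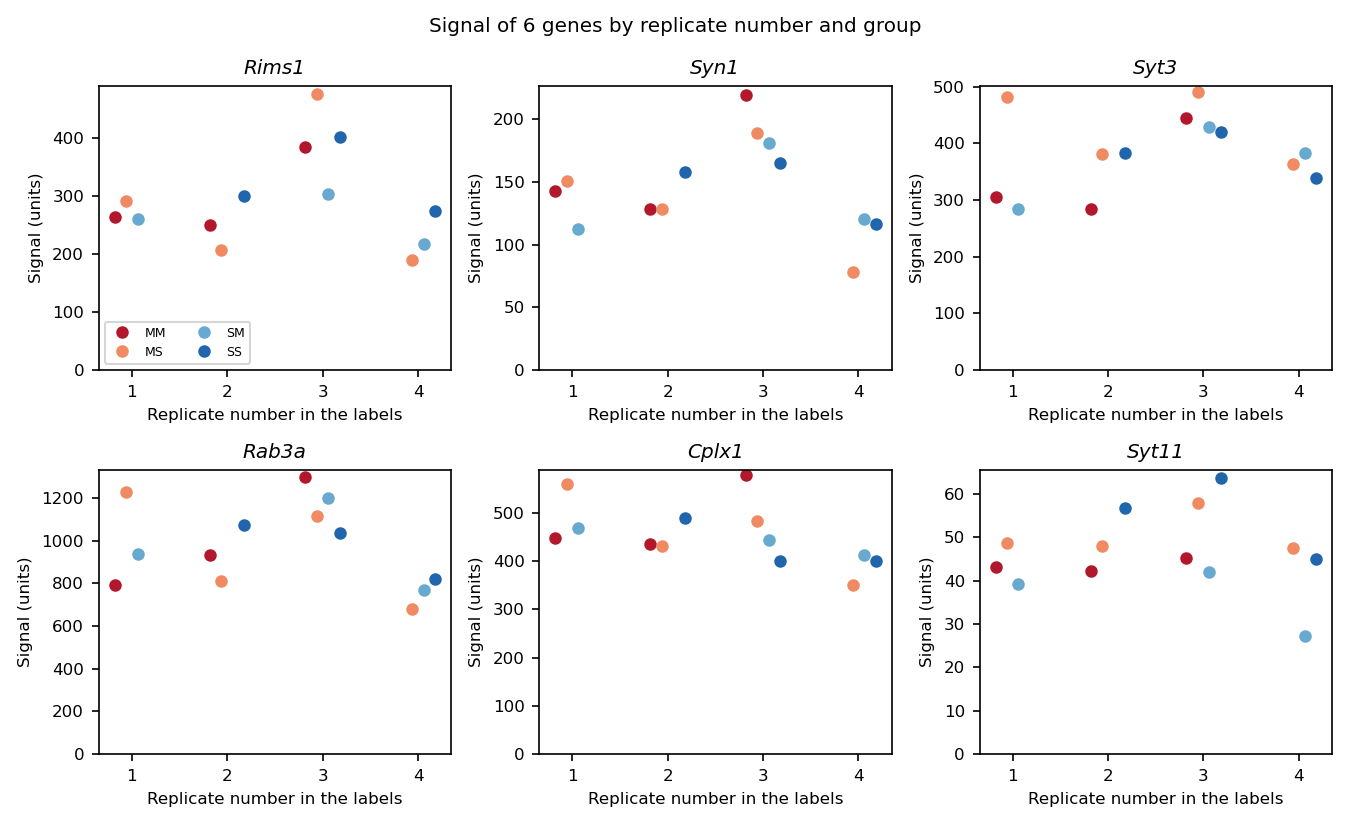
Signal in units (vertical axis) of Rims1, Syn1, Syt3, Rab3a, Cplx1 and Syt11 by the replicate number in the labels (horizontal axis, a name and not an order), with 1 point per array coloured by group. Rims1, Syn1, Syt3 and Syt11 are highest on replicate 3 in every group.

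Further members of each family had these values, and none of those with a fold change here was called in the 3 comparisons. Synaptophysin (Syp), an abundant protein of the vesicle membrane, had log2 fold changes of -0.01 (SE 0.14) for MS vs SS, -0.04 (SE 0.15) for SM vs SS and 0.00 (SE 0.14) for MM vs MS. Cplx1, 1 of the 2 tested complexins, which clamp and promote SNARE fusion, had 0.07 (SE 0.16), 0.04 (SE 0.17) and 0.10 (SE 0.16) in the same order. Sv2a read 114, 103, 111 and 108 units in MS, all below the 119.6, 114.2 and 115.6 units in SS, with a log2 fold change of -0.09 (SE 0.12). Stx3, a syntaxin of apical membranes and ribbon synapses, read 23.9, 23.0 and 19.6 units in MM, below all 4 MS arrays at 26.4, 26.0, 24.6 and 34.1 units (log2 -0.32, SE 0.16, limma adjusted p = 0.999). Of the Munc13 family, Unc13d, which primes granules of immune cells, had 0.22 (SE 0.16) in MS vs SS. The synaptotagmins Syt5 and Syt6 had log2 fold changes of 0.56 (SE 0.27) and 0.43 (SE 0.26) in SM vs SS, with overlapping groups. Both were dim, with median signals of 17.5 and 25.9 units, and the other Syt5 probe stood at the limit on all 13 arrays. The 6 tested Rab proteins outside the Rab3 group had log2 fold changes from -0.12 to 0.20 in MS vs SS, from -0.23 to 0.15 in SM vs SS and from -0.32 to 0.13 in MM vs MS, with none called. The largest of these in MS vs SS was that of Rab30, a Golgi GTPase (0.20, SE 0.14). Stx17, which fuses autophagosomes with lysosomes, was at the limit on 3 arrays and Syt9 on 2, and Syt10 was above it on 4.

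The widest spread within groups among bright genes was that of Syt12, a synaptotagmin of vesicles that is phosphorylated by protein kinase A, with an SD of 0.62 on the log2 scale. It read 231 and 212 units on MS replicates 1 and 2, 98.2 and 61.4 on MS replicates 3 and 4. The narrowest were Rab34 (0.10), Vamp4, Vamp2 and Vamp3 (0.11 each). Over the 48 bright genes the median SD was 0.20, against 0.18 for all bright probes. Rab3a, the main vesicle GTPase, averaged 1009 ± 261 units in MM, 959 ± 256 in MS, 969 ± 219 in SM and 978 ± 138 in SS (SD, n = 3, 4, 3 and 3).

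Genes that work beside this module were counted from lists of their own. Of 16 tested subunits of the vesicle proton pump, which powers the filling of vesicles, none was called in the 3 comparisons, and the median log2 fold changes were 0.02 for MS vs SS, 0.05 for SM vs SS and -0.01 for MM vs MS. Of 7 vesicle filling transporters and of 19 tested genes of vesicle endocytosis, such as clathrin and dynamin partners, none was called either. Of 18 active zone scaffolds 1 was called in the 3 comparisons, Apba1, lower in SM than in SS, where 1.62% of all probes were called. Apba1 was also called for the average METH challenge effect (lower), the average METH pretreatment effect (higher) and the difference between the challenge effects. All of these calls share the SM and SS arrays, so they are not separate results. Of 19 tested SNARE chaperones and partners none was called in the 3 comparisons, and 1, the syntaxin-binding protein Snph, for the difference between the challenge effects, where 1.66% of all probes were called. The lowest log2 values were -6.10 among the scaffolds in SM vs SS and -4.67 among the SNARE partners in that difference. How far the calls of Apba1 and Snph rest on values at the floor was not tested.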

How the data were processed

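Total RNA of SN/VTA tissue was amplified, labelled with biotin and hybridized to RatRef-12 BeadChips (22523 probes, 13 arrays; 3 MM, 4 MS, 3 SM and 3 SS). The label protocol names striatal RNA where it describes amplification. The tissue given for each sample was followed. Signals were read by the authors with BeadStudio, and GeneSpring was used for a global normalization, so each deposited value is a ratio of a probe on an array to a reference for that probe, with a lower limit of 0.01, at which 26.6% to 30.5% of the values of an array stand.

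Each array was scaled by its median ratio (0.770 to 0.952). The lowest medians were those of MS replicate 4 (0.770) and MS replicate 3 (0.835), and MS replicate 4 had the most values at the limit (30.5%). MS replicate 4 was also the lowest MS array for Syngr4 and Syt2, and MS replicate 3 for Stx1a. Scaled values under their 25th percentile (0.012), and all values at the limit, were set to that percentile as a floor, and log2 was taken. Probes that passed this floor on 3 or more of the 13 arrays (17140) entered a limma fit (version 3.58.1, R 4.3.3) with group means and a variance trend (prior degrees of freedom 2.80). Its p-values were adjusted by Benjamini-Hochberg over all of them. A gene was called at 1.7-fold and unadjusted p under 0.05. The fit was checked on simulated data. Signals in units were recovered for 22494 probes, since values of probes with low medians are whole multiples of a step on each array (29703 of 29703 within 0.02 of a whole number). The scale assumes that the reference of such probes is 10 units. Bead-level errors are not used here, so the number of arrays sets the precision.

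Probes were named by the platform annotation. All 71 symbols are unchanged in the current RefSeq table. A gene with several probes (Rims2 and Syt5) is given by the probe with the fewest values at the limit, then the lowest ID. Genes named are those called in any of 6 comparisons, the 3 with the smallest p in each direction, the core release machinery, and Th, Slc6a3, Slc18a2 and Tph2. Rab3d, Syt12, Syt13 and the members named for their spread, their values at the limit or by replicate number, and the called genes of other lists, were named after their values were seen. The members and lists were chosen with earlier results of these data known. Promoters are RefSeq's (GRCr8).

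Alternatives were quantile normalization, ratios as deposited, scaling on brighter probes (chosen after seeing the data), the floor at 0.5 and 2 times its value, signals plus 16 units, no filter or a stricter one, no variance trend, adjusted p, the probe with the highest median signal, a replicate block, replicate numbers 1 and 2 against 3 and 4 as a block, and leaving out each array. The probe with the highest median signal was the probe already used for every gene, so that alternative could not differ.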

Additional observations from a re-analysis of the deposited data

Results flagged for a closer look

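Syt11 on MS replicate 3 read 57.8 units and stood apart from the other 3 MS arrays, at 47.5 to 48.6 units. It was the 1 outlier among 34 genes of the module tested in MS, the only group with 4 arrays, and chance alone flags about 1 in 20. Replicate 3 was also the highest array for Syt11 in the other 3 groups.

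The challenge effects on Sypl2 after METH and after saline pretreatment differed by 6.02 on the log2 scale (SE 2.48, limma adjusted p = 1). Sypl2 stood at the limit on 1 MM array, on each of the 4 MS arrays and on 2 SM arrays, and the other arrays read 4.68 units or less.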

How the results depend on the processing

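No called value of a named gene changed sign under any alternative. Of 5088 values of named genes compared with their main value, 5037 stayed called or stayed not called, 33 lost the call and 18 gained one. Direction was compared only for values called in the main fit or in the alternative. The count of changed genes of the module in MS vs SS (3) was 0 on signals plus 16 units and 0 at adjusted p under 0.05, and 1 to 3 as single arrays were left out. In MM vs MS the count (1) was 0 with quantile normalization, 0 with ratios as deposited, 0 with no filter and 0 at adjusted p, and 0 to 2 without single arrays. There Sypl2 was gained without SM replicate 1 (log2 3.35) or MM replicate 1 (5.03), and Syt9 without MS replicate 1 (4.23). In SM vs SS the count (0) was 0 to 2, with Syngr4 gained without SS replicate 2 (-0.80), Syt5 without SS replicate 3 (0.86), Sypl2 without SM replicate 1 (-4.40), Syt2 (-0.88) and Syt16 (-1.69) without SM replicate 3, and Syt16 without MS replicate 4 (-1.33). The average METH challenge effect (0) gave 1 with quantile normalization (Syt16) and 0 to 1 without single arrays (Syt16 without MS replicate 4, -1.15), and the average METH pretreatment effect (0) 0 to 1. For the difference between challenge effects the count (1) was 0 on signals plus 16 units, 0 among probes above the floor on all 13 arrays, 0 at adjusted p and 0 to 3 without single arrays. Here Syt5 (-0.99) and Rab3il1 (-0.90) were gained without SS replicate 3, and Syt5 without SM replicate 4 (-0.90) or MM replicate 3 (-0.89). Except where an alternative by construction tests fewer genes, fewer arrays or a stricter threshold, the cause was not tested.

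With the replicate block the counts were 3 for MS vs SS, 1 for SM vs SS (Syt16), 0 for MM vs MS, 1 for the average METH challenge effect (Syt16), 1 for the average METH pretreatment effect (Syt13) and 0 for the difference between challenge effects. Of 15 pairs of arrays with the same number in different groups, 4 had residuals correlated over 0.1 (median 0.06, range -0.02 to 0.16; other pairs -0.03). Of 13 arrays 12 correlated best with an array of their own number, which is a hint from the data and not the design, so the numbers were not used as pairs. Dim signals limit these results: below 32 units scatter between arrays is a large part of each value.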
